A study of Macaca mulatta with 51 samples.

Results

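The integrated stress response and the serine synthesis branch that it controls were followed through 10 genes, chosen by symbol. They were ATF4 and DDIT3 (transcription factors), TRIB3 (a pseudokinase), CHAC1 (which degrades glutathione), and the enzymes ASNS, PHGDH, PSAT1, PSPH, SHMT2 and MTHFD2. Of these, 8 were matched by symbol among 16033 genes, while PSPH and MTHFD2 were not analysed here. The counts came from biopsies of subcutaneous adipose tissue (AT) and gastrocnemius skeletal muscle (SM) of adult obese, non-diabetic rhesus macaques, males and ovariectomized females kept on a high-fat and high-sucrose diet (diet-induced obesity, DIO). Each animal was sampled before treatment (pre-treatment), at the end of 12 weeks of daily subcutaneous native human FGF21 at rising doses, which 1 animal received to a lower final dose (post-treatment), and after a washout of 16 weeks. There was no untreated arm, so every group shares the obesity and the diet, the pre-treatment biopsy of an animal is its control, and time in the study cannot be told apart from treatment. There were 10, 9 and 8 AT libraries (10 animals) and 6, 8 and 7 SM libraries (8 animals) at these time points.

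The integrated stress response starts when a kinase of the EIF2AK family, activated by amino acid shortage, endoplasmic reticulum stress, viral RNA or lack of heme, phosphorylates the alpha subunit of the translation initiation factor eIF2. General translation then slows while ATF4 mRNA is translated more, so that the level of the ATF4 transcript does not report the level of the ATF4 protein. ATF4 raises genes for amino acid import, asparagine and serine synthesis, mitochondrial one-carbon metabolism and tRNA charging, and it also induces the FGF21 gene.

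Libraries held 14455195 to 23940980 counts on genes. Labels were checked against markers. The summed level of 9 of 10 listed myofibre genes was 66.0 to 187 CPM (counts scaled to a common library size) over the AT groups and 52359.8 to 274323 CPM over the SM groups, and that of 5 of 8 listed adipocyte genes was at least 9152.6 CPM in AT and at most 1772.3 CPM in SM. The lowest myofibre sum in SM belonged to the post-treatment library of animal 21189, which also had the highest sum of adipose matrix genes in SM, 9271.8 CPM. Levels below are CPM on library sizes scaled by the TMM method within a tissue. A change is the log2 fold change fitted for the time point with the animal as a block (edgeR quasi-likelihood test, with p-values adjusted by Benjamini-Hochberg over all genes tested in the tissue), and genes are called DE when the adjusted p is below 0.05 and the change exceeds 0.26 in size.

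In AT, 3 enzymes of amino acid synthesis were DE at lower levels post-treatment: ASNS, which makes asparagine, PHGDH, which commits the glycolytic intermediate 3-phosphoglycerate to serine synthesis, and PSAT1, the aminotransferase of the next step. The 3 were 3 of 8 members, where 8.49% of the 13367 genes tested in AT were DE lower, and 0 of 8 were DE higher, where 6.98% of genes were. All 8 fitted changes were below 0, with a median of -0.40, against a median of 0.03 over all genes tested, of which 45.7% had a fitted change below 0. In bulk biopsies, fewer cells of a type and less RNA per cell cannot be told apart.

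ASNS levels in AT were 28 to 50.8 CPM pre-treatment (median 40.7, n = 10) and 14.5 to 48.8 CPM post-treatment (median 23.4, n = 9). The groups overlapped through 1 library, that of animal 20261 at 48.8 CPM, while the other 8 post-treatment libraries lay at or below 27.6 CPM, under the lowest pre-treatment library. The mean fell from 39.7 ± 8.08 CPM (SD, n = 10) to 24.2 ± 10.1 CPM (SD, n = 9), and the level was lower in 9 of 9 animals with both biopsies. The fitted log2 change of ASNS was -0.81 (SE 0.15, edgeR adjusted p = 0.00278).

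PHGDH in AT ranged from 46.5 to 86.8 CPM pre-treatment (median 60.0, n = 10) and from 17.2 to 88.4 CPM post-treatment (median 39.7, n = 9). Of the post-treatment libraries, 7 of 9 lay below the lowest pre-treatment library, and the highest value belonged to animal 24849, which was also highest before treatment. PHGDH changed by -0.66 (SE 0.16, edgeR adjusted p = 0.0124) and was lower in 8 of 9 animals, with animal 24849 the exception at a within-animal change of 0.03. PSAT1 ranged from 12.1 to 24.8 CPM pre-treatment (median 17.3, n = 10) and from 3.56 to 33.6 CPM post-treatment (median 7.9, n = 9). Here 6 of 9 post-treatment libraries lay below the pre-treatment range and 1, from animal 20275, lay above it. PSAT1 changed by -0.87 (SE 0.25, edgeR adjusted p = 0.0261), was lower in 8 of 9 animals, and was no longer DE when animal 21189, 22130 or 26292 was left out (adjusted p = 0.0655, 0.0867 and 0.0602).

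Animal 22130 had the lowest post-treatment level of all 3 enzymes in AT (14.5 CPM for ASNS, 17.2 for PHGDH and 3.56 for PSAT1) and the largest fall within an animal for PHGDH (-1.72), PSAT1 (-2.17) and ATF4 (-1.06). It was also the 1 animal whose pre- and post-treatment AT libraries came from different number series of library identifiers, and the part of this in its own values was not tested. In the AT fit with the series as a covariate, ASNS, PHGDH and PSAT1 stayed DE lower post-treatment. Without the animal in the model only ASNS remained DE (1 of 8 members lower), with adjusted p of 0.168 for PHGDH and 0.159 for PSAT1. The largest fall of ASNS, -1.45, was in animal 21189. The smallest changes of ASNS and PSAT1 were in animal 20261 (-0.06 and -0.18), that of PHGDH was in animal 24849 (0.03), and PSAT1 was higher in animal 20275 (0.46).

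SHMT2, the mitochondrial enzyme that splits serine into glycine and a one-carbon unit, is the member that uses serine rather than makes it. Its AT levels were 48.3 to 82.9 CPM pre-treatment (median 57.9) and 49.4 to 69.3 CPM post-treatment (median 54.3), with 5 of 9 animals lower and 4 higher. The change was -0.05 (SE 0.10, adjusted p = 0.784), and without animal 20456 it turned to 0.02.

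**Figure D1:**
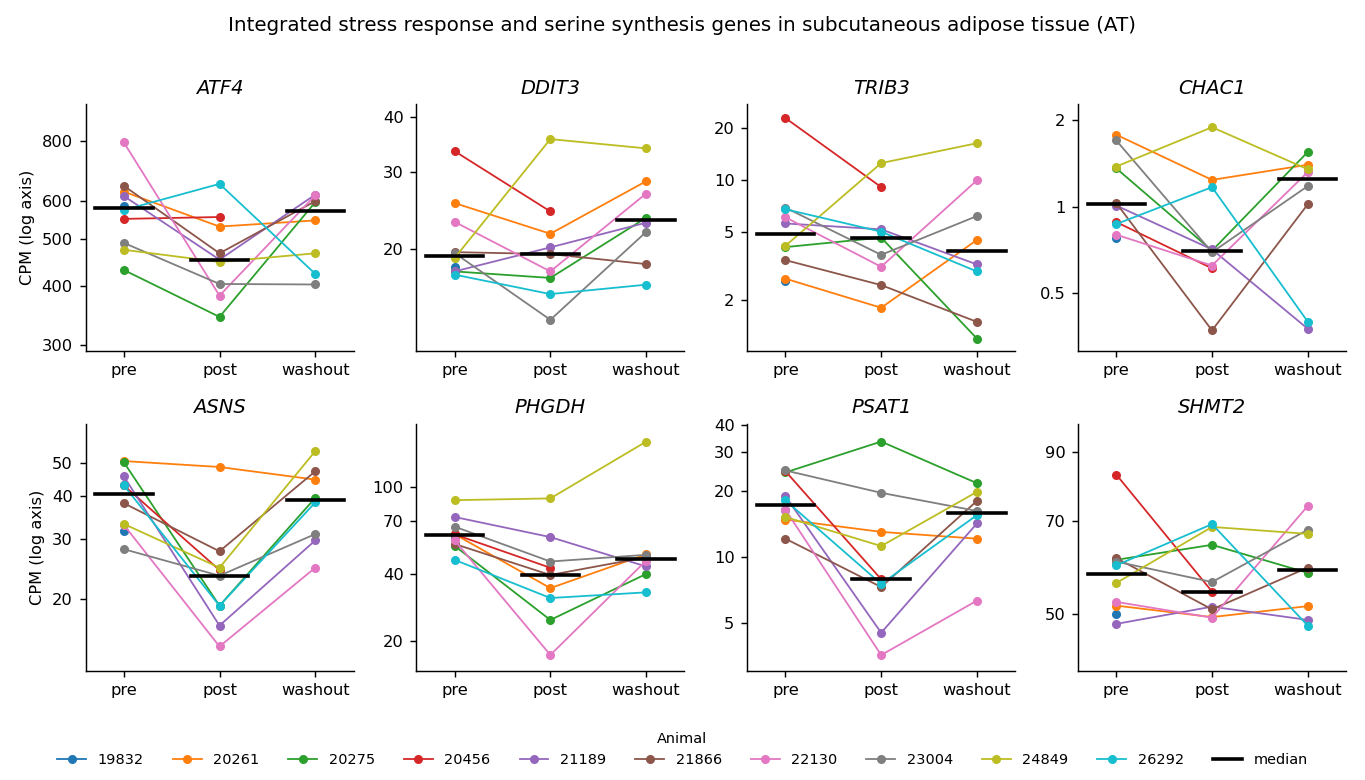
Level of each member in AT in CPM (log axis, a separate scale in each panel) at the 3 time points, with a coloured line for each animal and a black bar at the median. In the lower row, ASNS, PHGDH and PSAT1 dip post-treatment in most animals (medians 40.7 to 23.4, 60.0 to 39.7 and 17.3 to 7.9 CPM), while SHMT2 shows no such dip (57.9 to 54.3 CPM).

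None of ATF4, DDIT3, TRIB3 and CHAC1 was DE in AT post-treatment. ATF4 transcript levels were 431 to 796 CPM pre-treatment (median 580.0) and 344 to 652 CPM post-treatment (median 453). The change of ATF4 was -0.29 (SE 0.12, p = 0.0292 before and 0.104 after adjustment in edgeR), with 7 of 9 animals lower. DDIT3, which encodes the stress-induced transcription factor CHOP, lay at 17.5 to 33.5 CPM (median 19.4) and then at 13.8 to 35.7 CPM (median 19.5), a change of -0.08 (SE 0.11, adjusted p = 0.664).

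TRIB3, a pseudokinase induced by ATF4 and CHOP that dampens ATF4 activity, lay at 2.58 to 22.8 CPM pre-treatment (median 4.86) and at 1.81 to 12.5 CPM post-treatment (median 4.62), with a change of -0.36 (SE 0.33, adjusted p = 0.455). CHAC1, which degrades glutathione, was close to the filter on low values, with 7 to 38 counts per AT library. It changed by -0.44 (SE 0.25, adjusted p = 0.224), from a median of 1.02 CPM to 0.704 CPM. For each of these 4 genes 7 of 9 animals were lower, but the libraries of the groups overlapped. For DDIT3, TRIB3 and CHAC1, animal 24849 went the other way, with within-animal changes of 0.90, 1.57 and 0.42.

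After the washout, 1 of the enzymes was DE in the other direction. ASNS was the 1 member of 8 that was DE higher in AT at washout compared to post-treatment, where 17.6% of the genes tested were DE higher, and 0 of 8 were DE lower, where 17.8% were. ASNS lay at 24.7 to 54.3 CPM at washout (median 39.0, n = 8), above its own post-treatment level in 7 of 8 animals, with a change of 0.72 (SE 0.15, edgeR adjusted p = 0.00129). The exception was animal 20261, in which ASNS had changed by -0.06 during treatment. All 8 members had fitted changes above 0, with a median of 0.25, against -0.002 over all genes tested. This step is measured from the same post-treatment libraries as the fall, so rise and fall are not independent.

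PHGDH lay at 33.1 to 160.0 CPM at washout (median 46.9), with the top value in animal 24849 and the other 7 libraries at or below 49.2 CPM. Its change of 0.42 (SE 0.16) was not DE at an edgeR adjusted p of 0.0505, although 7 of 8 animals were higher. PSAT1 lay at 6.31 to 21.7 CPM (median 15.8), a change of 0.56 (SE 0.26, adjusted p = 0.0948) with 5 of 8 animals higher. DDIT3 lay at 16.6 to 34.0 CPM (median 23.3) and was higher in 6 of 8 animals, a change of 0.29 (SE 0.12, adjusted p = 0.0592). PHGDH and DDIT3 were called under other tests or scalings, with adjusted p of 0.0215 and 0.0206 with voomWithQualityWeights of limma and 0.032 and 0.046 with DESeq2. At washout ATF4 lay at 402 to 619 CPM (median 572), TRIB3 at 1.2 to 16.3 (median 3.86), CHAC1 at 0.377 to 1.55 (median 1.25) and SHMT2 at 48.0 to 74.0 (median 58.7). They changed by 0.20, 0.20, 0.22 and 0.08, with adjusted p from 0.237 to 0.672.

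Compared to pre-treatment, 0 of 8 members were DE at washout in AT by edgeR, where 12.5% of genes were DE higher and 7.96% DE lower. No member reached an unadjusted p under 0.05 in edgeR, where 4549 of the 13367 genes did, and voomWithQualityWeights and DESeq2 also called 0 members. The changes of ASNS, PHGDH and PSAT1 from pre-treatment to washout were -0.09 (SE 0.15), -0.24 (SE 0.16) and -0.32 (SE 0.26). ASNS was lower in 5 of 8 animals, PHGDH in 7 of 8 and PSAT1 in 6 of 8. The rise of PHGDH was in animal 24849 (0.88), and 4 of 8 washout libraries lay below its lowest pre-treatment level. The members' edgeR adjusted p ran from 0.217 to 0.841. These comparisons share libraries with those above and are not independent of them.

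Other cell types moved over the same time points in AT. The summed level of 10 of 10 macrophage genes had a median of 1298.8 CPM pre-treatment (range 651 to 2379.7), 2676.8 post-treatment (959 to 5412.5) and 664 at washout (394 to 2124.1). Of the 10, 3 were DE higher post-treatment and 10 were DE lower at washout compared to post-treatment. The sum of 5 of 8 adipocyte genes had medians of 16845.6 CPM (14562.9 to 30609.4), 16682.7 CPM (9579.5 to 28220.0) and 14045.4 CPM (9152.6 to 27210.8), with 1 gene DE lower post-treatment. The sum of the 5 red cell genes, of which HBA1 and HBA2 were at 0 counts in every library, had medians of 2676.9 CPM (327 to 10552.6), 851 CPM (454 to 7643.4) and 5107.5 CPM (457 to 11987.9). The part of these cells in the changes of the members was not tested.

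By their numbers, library identifiers form 3 series, and the labels do not say what these mark. Within the 6 animals whose pre- and post-treatment AT libraries both came from the last series, the mean within-animal change was -0.83 for ASNS (lower in 6 of 6), -0.54 for PHGDH (5 of 6) and -0.69 for PSAT1 (5 of 6).

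A wider set of genes of the same pathway, in 7 lists of neighbours, was counted in the same fit. Post-treatment in AT, 10 of the 85 listed genes tested (11.8%) were DE lower and 1 (1.18%) was DE higher, beside 8.49% and 6.98% of all genes. Among 13 partners and targets of ATF4, 3 were DE lower and 0 higher. The fitted changes of this list had no common sign, with 7 above 0, 6 below and a median of 0.0. ATF5, a transcription factor that is itself under translational control by eIF2, fell from 159 ± 63.1 CPM (SD, n = 10) to 67.5 ± 18.4 CPM (SD, n = 9), a change of -1.26 (SE 0.20, edgeR adjusted p = 0.00127). STC2, a secreted glycoprotein induced by endoplasmic reticulum stress, changed by -1.08 (SE 0.21, adjusted p = 0.00417), and SESN2, a leucine sensor that restrains mTORC1, by -0.44 (SE 0.11, adjusted p = 0.0147). All 3 were lower in 9 of 9 animals.

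Of 8 amino acid transporters 1 was DE lower: SLC7A11, the cystine and glutamate exchanger, which went from 3.02 ± 2.08 to 0.954 ± 0.474 CPM (SD, n = 10 and 9), a change of -1.54 (SE 0.23, edgeR adjusted p = 0.000859), lower in 9 of 9 animals. Of 14 genes of folate and one-carbon metabolism 2 were DE lower, and both act in mitochondria. MTHFD1L, which releases formate, changed by -0.74 (SE 0.15, adjusted p = 0.00503), and ALDH1L2, which oxidizes formyl-tetrahydrofolate, by -0.69 (SE 0.15, adjusted p = 0.00788). Of 18 cytosolic tRNA synthetases 3 were DE lower, for alanine (AARS, -0.53, SE 0.11), isoleucine (IARS, -0.30, SE 0.08) and methionine (MARS, -0.28, SE 0.07), with adjusted p of 0.00732, 0.0194 and 0.0179, and 14 of the 18 had fitted changes below 0. Of all genes tested in AT, 8.49% were DE lower and 45.7% had fitted changes below 0 at this step.

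None of the 7 other genes of amino acid synthesis was DE post-treatment in AT by edgeR. Their fitted changes were above 0 for 4 and below 0 for 3, with a median of 0.21. For the 8 transporters 4 were above 0 and 4 below, and for the 14 folate genes 4 were above and 10 below. Of 9 tested genes that use or carry serine and glycine, 1 was DE higher and 0 lower, beside 6.98% and 8.49% of all genes. The gene was SFXN3, of the sideroflexin family of mitochondrial serine carriers, at 0.40 (SE 0.11, adjusted p = 0.0228).

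**Figure D2:**
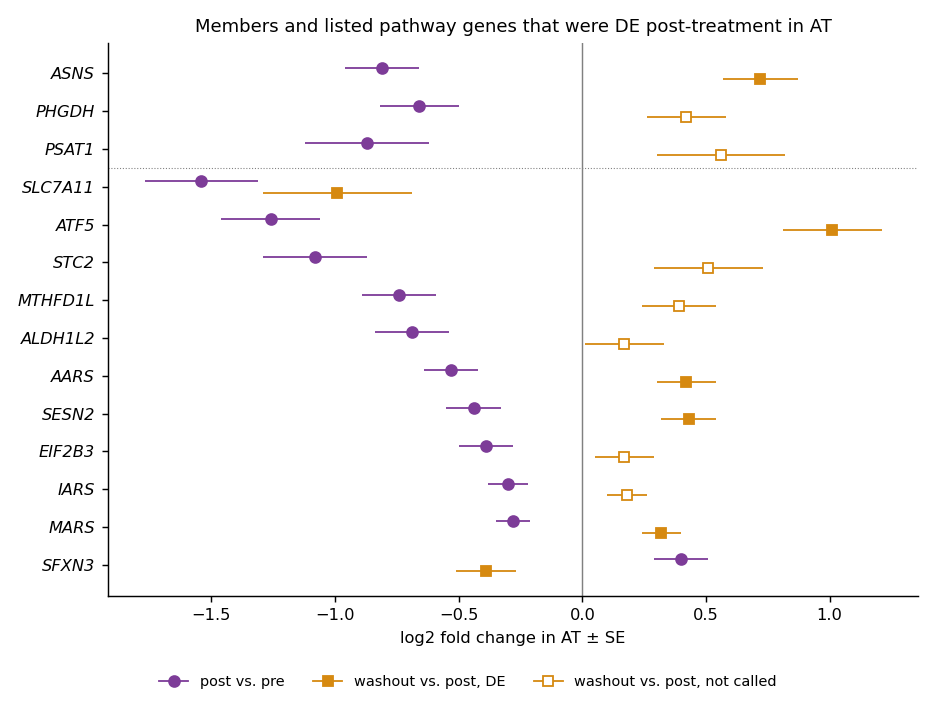
Log2 fold changes in AT (bars, SE) for the 3 members and the 11 listed pathway genes that were DE post-treatment, with post-treatment against pre-treatment in purple and washout against post-treatment in orange (open squares, not DE). Apart from SLC7A11, which fell at both steps (-1.54 and -0.99), the genes that were lower post-treatment had washout changes above 0, from 0.17 for ALDH1L2 and EIF2B3 to 1.01 for ATF5. These genes were chosen by low values in the post-treatment libraries, from which the washout change is also measured, so opposite signs are in part built in.

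Of those 10 listed genes that were lower post-treatment, 4 were DE higher at washout compared to post-treatment: ATF5 (1.01, SE 0.20, edgeR adjusted p = 0.000923), SESN2 (0.43, SE 0.11, 0.00723), AARS (0.42, SE 0.12, 0.00914) and MARS (0.32, SE 0.08, 0.00354). Both steps use the same post-treatment libraries, by whose low values these genes were picked, so the rises are not independent of the falls. STC2 and MTHFD1L, at 0.51 and 0.39, were not called (adjusted p = 0.0701 and 0.0527). SLC7A11 was DE lower once more, at -0.99 (SE 0.30, adjusted p = 0.0146), and lower in 8 of 8 animals.

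The other lists also held genes that were DE at this step. Among the partners and targets of ATF4, 2 were DE higher (ATF5 and SESN2) and 3 DE lower: GDF15, the stress-induced transcription factor ATF3 (-1.73, SE 0.59, edgeR adjusted p = 0.0268) and its relative JDP2 (-0.57, SE 0.10, 0.000257). SLC3A2, the heavy chain that SLC7A11 pairs with, changed by -0.46 (SE 0.13, 0.0084), and PCK2, the mitochondrial PEP carboxykinase, by -0.73 (SE 0.24, 0.0215). In folate metabolism 3 genes were DE higher, MTHFD2L (0.56), FPGS (0.45) and MTFMT (0.36), and 2 DE lower, MTR (-1.49) and the thymidylate synthase TYMS (-0.98). AMT of the glycine cleavage system changed by 1.28 and SFXN3 by -0.39, and the synthetases CARS and DARS by 0.31 and -0.27. Over all 85 genes, 9 (10.6%) were DE higher and 14 (16.5%) DE lower at this step, beside 17.6% and 17.8% of all genes.

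The kinases that start the response and other genes that control eIF2 formed a list of 16 genes tested in AT. Of these, 1 was DE lower post-treatment and 0 higher, beside 8.49% and 6.98% of all genes. At washout against post-treatment, 4 were DE lower and 0 higher, beside 17.8% and 17.6% of all genes. The gene lower post-treatment was EIF2B3, a subunit of the nucleotide exchange factor of eIF2, at -0.39 (SE 0.11, edgeR adjusted p = 0.0274). None of the 4 kinases was DE at that step: EIF2AK1, the heme-regulated kinase, changed by -0.23 (SE 0.09, adjusted p = 0.0785), EIF2AK2, the kinase PKR that binds double-stranded RNA, by 0.04 (SE 0.18, 0.906), EIF2AK3, the endoplasmic reticulum kinase PERK, by 0.16 (SE 0.07, 0.138), and EIF2AK4, the amino acid sensor GCN2, by -0.11 (SE 0.07, 0.289). At washout compared to post-treatment, EIF2AK2 fell from 22.7 ± 7.14 CPM (SD, n = 9) to 10.7 ± 4.87 CPM (SD, n = 8), a change of -1.15 (SE 0.19, adjusted p = 0.000202), and EIF2AK3 changed by -0.31 (SE 0.08, adjusted p = 0.00413). The phosphatase subunits that reverse eIF2 phosphorylation, PPP1R15A and PPP1R15B, changed by -0.49 (SE 0.12) and -0.52 (SE 0.09), with adjusted p of 0.00491 and 0.000232.

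Both hormones of the stress response were read in the macaque transcripts, which do not measure the injected protein. FGF21 itself was near the limit of the counts in AT, at 2 to 35 counts per library pre-treatment, 1 to 69 post-treatment and 0 to 43 at washout. Its change post-treatment was -0.92 (SE 0.53, edgeR adjusted p = 0.224), with 6 of 9 animals lower and 3 higher, and the largest rise within an animal, 3.71, was in animal 24849. GDF15, a circulating signal that stressed tissues release, lay at 3.20 to 36.2 CPM in AT pre-treatment (median 14.7), at 11.3 to 86.8 CPM post-treatment (median 25.2) and at 4.35 to 61.6 CPM at washout (median 7.10). It changed by 1.0 post-treatment (SE 0.45, adjusted p = 0.12) and by -1.59 at washout (SE 0.48, adjusted p = 0.0144), lower in 7 of 8 animals. These signs are opposite to those of ASNS, PHGDH and PSAT1, and the macrophage genes given above moved over the same steps as GDF15, whose source was not tested.

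In SM, 0 of 8 members were DE by edgeR in any of the 3 comparisons, where 0% of 12617 genes were called post-treatment, 0.19% at washout against post-treatment (0.182% higher and 0.00793% lower) and 0.0634% at washout against pre-treatment (all higher). voomWithQualityWeights and DESeq2 called 0 members as well. In edgeR, 0, 1 and 1 of the 8 members had an unadjusted p under 0.05, beside 410, 2181 and 1691 of the 12617 genes. The median change of the members was -0.03, -0.13 and -0.23, beside -0.02, -0.03 and -0.05 over all genes.

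ASNS in SM lay at 0.527 to 11.9 CPM pre-treatment (median 1.82, n = 6), 1.03 to 3.93 post-treatment (median 2.59, n = 8) and 1.45 to 8.72 at washout (median 2.44, n = 7). PHGDH lay at 0.466 to 12.4 CPM (median 1.69), 0.808 to 7.6 (median 2.19) and 0.62 to 7.24 (median 1.28), and PSAT1, with 2 to 60 counts per library, had medians of 0.85, 0.731 and 0.62 CPM. The within-animal changes of these enzymes from pre- to post-treatment ran from -2.88 to 2.17. ASNS was higher in 5 of 6 animals, and PHGDH and PSAT1 were each higher in 4 of 6. The lowest change of each was in animal 19832 (-2.12, -2.88 and -2.01). ASNS changed by 0.15 (SE 0.56), PHGDH by -0.42 (SE 0.68) and PSAT1 by 0.13 (SE 0.65), beside standard errors of 0.15, 0.16 and 0.25 in AT.

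None of the other members was DE in SM either. ATF4 had medians of 581, 574 and 552 CPM at the 3 time points and SHMT2 of 27.7, 32.0 and 29.5 CPM, with changes post-treatment of 0.04 (SE 0.16) and 0.11 (SE 0.12). TRIB3, at 1 to 18 counts per library, changed by -0.69 (SE 0.51) and CHAC1 by -1.18 (SE 0.69), the latter with single libraries from 0.196 to 10.6 CPM.

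A single library held the top of the pre-treatment range for most members. In the SM of animal 19832 before treatment, 7 of 8 members (all but CHAC1) had their highest level of the 6 pre-treatment libraries, with 910.0 CPM for ATF4, 38.9 for DDIT3, 11.9 for ASNS, 12.4 for PHGDH, 1.86 for PSAT1, 1.32 for TRIB3 and 37.9 for SHMT2. FGF21 was also highest there, with 14 counts. The share of all genes that were highest in that library was not counted. Its total of 14455195 counts was the lowest of all libraries. The adipocyte sum of that library was 1506.1 CPM, the fifth of 21 SM libraries, and its myofibre sum was 229199.6 CPM, the tenth. Without animal 19832 the change of PHGDH in SM went from -0.42 to 0.24 and that of DDIT3 from -0.11 to 0.11 post-treatment, and neither was DE. At washout, ASNS, PHGDH, PSAT1, TRIB3 and FGF21 were highest in animal 22130, whose library also had the highest macrophage sum in SM, 344 CPM.

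**Figure D3:**
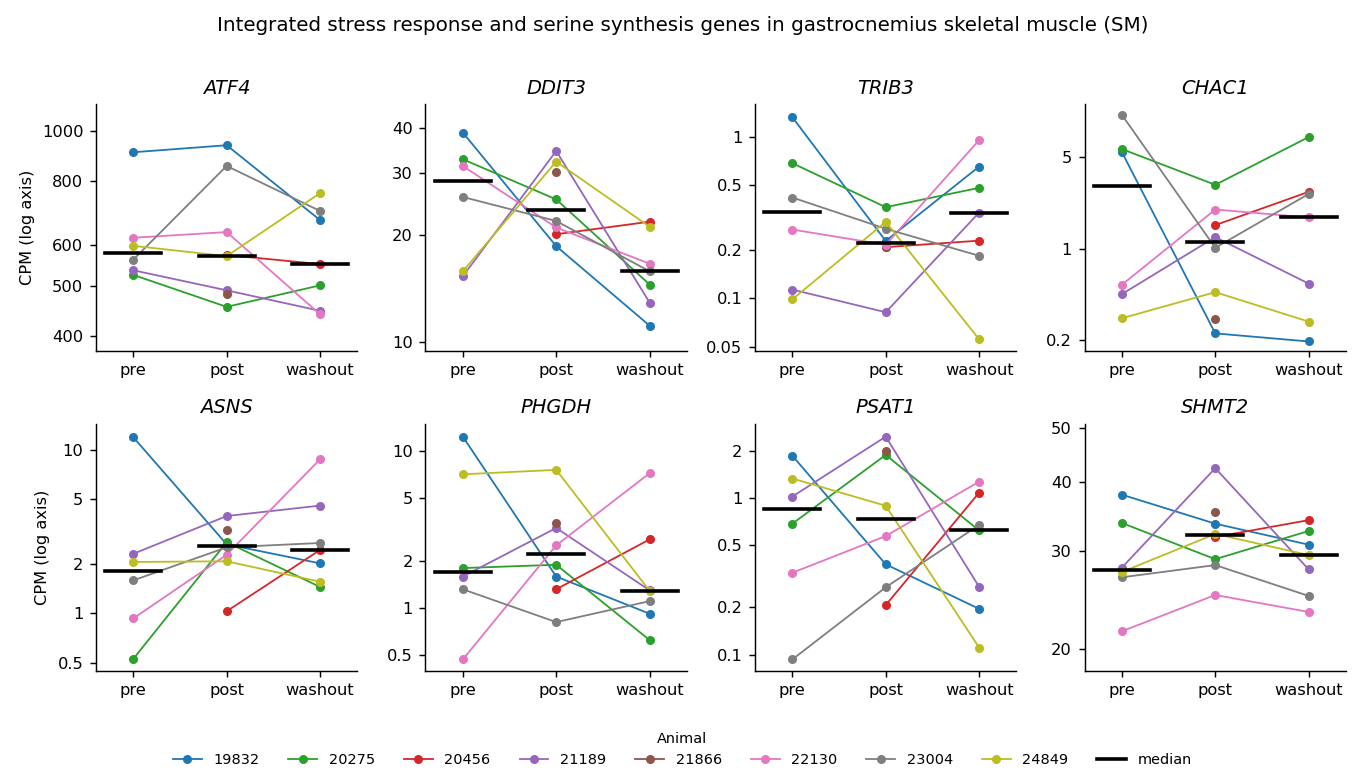
Level of each member in SM in CPM (log axis, a separate scale in each panel) at the 3 time points, with a coloured line for each animal and a black bar at the median. Lines cross without a common direction, animal 19832 starts highest for ASNS (11.9 CPM) and PHGDH (12.4 CPM), and DDIT3 ends lowest at washout (median 15.8 CPM).

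DDIT3 had the smallest adjusted p of the members in SM at both washout comparisons. It lay at 15.3 to 38.9 CPM pre-treatment (median 28.5), 18.6 to 34.5 post-treatment (median 23.6) and 11.1 to 21.8 at washout (median 15.8), and 5 of 7 washout libraries lay below the lowest post-treatment library. The change was -0.63 against post-treatment (SE 0.25, edgeR adjusted p = 0.225, lower in 6 of 7 animals) and -0.74 against pre-treatment (SE 0.27, adjusted p = 0.29, lower in 5 of 6). With the identifier series as a covariate the values were -1.17 and -1.11 and DE (adjusted p = 0.00635 and 0.0172), in fits that called 2650 and 1355 of the 12617 genes in place of 24 and 8. Of the SM libraries, 5 of 8 post-treatment but 0 of 7 at washout belonged to the first series, so that series and time point overlap only in part. In the 2 animals with both libraries in the last series (21189 and 24849), the mean change of DDIT3 was -1.01 against post-treatment. The 3 post-treatment libraries of that series had the lowest myofibre sums of the 21 SM libraries (52359.8, 99593.8 and 108606.9 CPM). Series and biopsy composition thus cannot be told apart here. None of the 82 listed pathway genes tested in SM was DE by edgeR in any comparison.

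Whether AT and SM changed differently was tested by an interaction term, for the 12322 genes that passed the filter in each. Post-treatment, 0 of 8 members were called, where 0.0487% of genes were, and ASNS had the smallest unadjusted p, with an AT change lower than the SM change by 1.05 on the log2 scale (difference -1.05, SE 0.51, p = 0.0487, edgeR adjusted p = 0.468). The fall of ASNS, PHGDH and PSAT1 in AT was thus not shown to differ from SM at this number of libraries. At washout, DDIT3 was called, where 22.7% of genes were called against post-treatment and 17.5% against pre-treatment. The change in AT exceeded that in SM by 0.90 (SE 0.26, adjusted p = 0.0137) and by 0.88 (SE 0.27, adjusted p = 0.0238), with AT moving up by 0.29 and 0.21 and SM down by 0.63 and 0.74, none of the 4 being DE within its tissue. The first of these lost its call with voomWithQualityWeights (0.69, adjusted p = 0.0735).

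**Figure D4:**
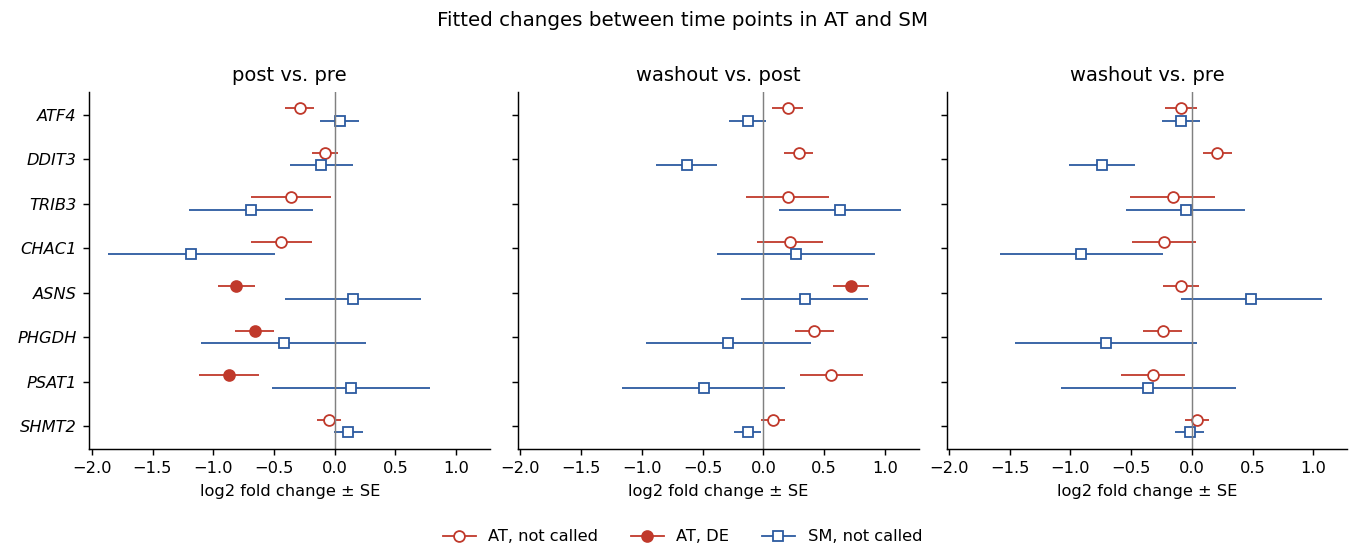
Fitted log2 fold changes (bars, SE) of the 8 members in AT (red circles) and SM (blue squares) for the 3 comparisons of time points, with filled symbols for DE. Filled symbols are at ASNS, PHGDH and PSAT1 in AT post-treatment (-0.81, -0.66, -0.87) and at ASNS in AT at washout (0.72), and DDIT3 separates AT from SM in the 2 washout panels.

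Levels before treatment were also compared between the tissues. On a scale common to both tissues, 4 of 8 members were DE at higher levels in AT, where 42.1% of 13463 genes were, and 3 were DE higher in SM, where 35.5% of genes were. ASNS was at 22.1 to 39.1 CPM in AT (median 31.9, n = 10) and at 0.707 to 15.4 CPM in SM (median 2.49, n = 6), without overlap, a log2 difference of 3.17 (SE 0.44, edgeR adjusted p = 6.52e-08). PHGDH, PSAT1 and TRIB3 were higher in AT by 3.59 (SE 0.51), 3.65 (SE 0.54) and 3.02 (SE 0.55), also without overlap. The share of all genes without overlap between the tissues was not counted, so whether the lack of overlap is particular to the members cannot be said.

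ATF4 was lower in AT than in SM by 0.90 on the log2 scale (difference -0.90, SE 0.16, adjusted p = 4.41e-06). It lay at 334 to 629 CPM in AT and 705 to 1180.7 CPM in SM, without overlap in this direction. DDIT3 differed by -1.17 (SE 0.19) and CHAC1 by -2.21 (SE 0.57), but their libraries overlapped, and CHAC1 in SM spread from 0.406 to 14.4 CPM. SHMT2 was at 37.0 to 65.7 CPM in AT and 29.6 to 49.1 CPM in SM, a difference of 0.21 (SE 0.12, adjusted p = 0.115). The AT-high enzymes kept their call with library size alone as the scale, whereas ATF4 (-0.17, adjusted p = 0.267) and DDIT3 (-0.45, adjusted p = 0.0717) lost it and SHMT2 became higher in AT (0.95).

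How the members varied together was described by correlation. After removal of the time point means, the median Pearson r of log2 CPM over the 28 pairs of members was 0.20 in AT (n = 27 libraries, range -0.33 to 0.64) and 0.14 in SM (n = 21, range -0.38 to 0.67), given as a description because the libraries share animals. With the animal means removed as well (the replicate block), the medians were 0.25 and 0.34, with 5 and 10 pairs above 0.5 in place of 3 and 3, and with library size alone the SM median was 0.31. In AT the closest pairs were TRIB3 with SHMT2 (0.64), DDIT3 with TRIB3 (0.60) and DDIT3 with PHGDH (0.54), while ATF4 had r of 0.10 with ASNS and -0.33 with PSAT1. With the block, ATF4 had r of 0.10 with ASNS, 0.12 with PSAT1, 0.41 with PHGDH and 0.48 with CHAC1. In SM, r was 0.67 for ASNS and PHGDH, 0.64 for PHGDH and PSAT1 and 0.54 for ASNS and PSAT1. With the block these values were 0.86, 0.78 and 0.74. All 3 enzymes were highest in animal 19832 pre-treatment and in animal 22130 at washout, and PSAT1 had few counts in SM. The part of these libraries in r was not tested.

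Of 12131 other genes whose mean in AT reached 1 CPM, those most like a member over the 27 AT libraries, with the time points left in, were PARK2 (r = 0.888), HIST1H4H (0.881) and HIST2H2BE (0.873) for ASNS. They were CD320 (0.749), KLK15 (0.728) and UQCC1 (0.723) for PHGDH, and SLC25A26 (0.854), APEX1 (0.842) and HINT2 (0.829) for ATF4.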

How the data were processed

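Stranded mRNA libraries from AT and SM biopsies were sequenced with paired 50 nucleotide reads. STAR was the authors' aligner and MacaM the reference genome, and raw counts were deposited per gene, without normalization. Symbols are those of human homologs. The counting tool is not given in the sources used here. The table held 16103 entries, of which 70 repeated a gene with identical counts and were dropped. Of 51 labelled samples, 3 SM samples were not analysed here.

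Per tissue, a gene was tested when 10% or more of the libraries reached 0.5 CPM (13367 in AT, 12617 in SM). R 4.3.3 with edgeR 4.0.16 gave TMM scaling, log2 CPM (prior count 2, for within-animal changes and correlations) and robust quasi-likelihood tests of time point and animal, two-sided, 1 fit per tissue; tissues were compared in joint fits. The animal is given in the labels, and same-animal libraries deviated together from the time point means (median r over genes 0.35 in AT over 25 pairs and 0.28 in SM over 19, against -0.04 and -0.05 for other pairs). Totals of 14455195 to 23940980 counts make counting error small except for genes near 0.5 CPM, where the spread between animals adds to it. The fit was also run on simulated counts drawn without differences between animals, so that run does not check the animal block. Tables and plots were made with Python 3.11.15, pandas 2.3.3 and matplotlib 3.10.9.

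The members and lists were chosen with earlier results of these data known. PSPH and MTHFD2 were not analysed here. Named were all members, FGF21, GDF15 and the 4 kinases, the 3 largest DE increases and decreases of each list, and the 3 genes most like ASNS, PHGDH and ATF4. Alternatives were voomWithQualityWeights of limma 3.58.1, DESeq2 1.42.0, other scalings and filters, no animal in the model, 2 time points at a time, no fold change limit, the identifier series as a covariate, and leaving out each animal or the pre-treatment AT library of animal 20275. edgeR's earlier quasi-likelihood method was added after seeing the data. A promoter motif search was planned and was not run here.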

Additional observations from a re-analysis of the deposited data

Results flagged for a closer look

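Of 48 groups of libraries (8 members, 2 tissues, 3 time points), 12 had 1 library far from the rest by Dixon's criterion, 6 in AT and 6 in SM. The limit is set to flag about 1 in 20 groups of normally distributed values. That rate need not hold here, because CPM were taken without logs and the groups share animals. Every flagged value was the highest of its group. Animal 20456 stood out in AT pre-treatment for DDIT3 (33.5 CPM), TRIB3 (22.8 CPM) and SHMT2 (82.9 CPM). Animal 24849 stood out in AT for DDIT3 post-treatment (35.7 CPM) and PHGDH at washout (160.0 CPM), and in SM for PHGDH post-treatment (7.6 CPM). In AT post-treatment, animal 20261 was high for ASNS at 48.8 CPM. In SM, animal 19832 was high pre-treatment for ATF4 (910.0 CPM) and ASNS (11.9 CPM), animal 22130 at washout for ASNS (8.72 CPM) and PHGDH (7.24 CPM), and animal 20275 at washout for CHAC1 (7.16 CPM).

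The change of DDIT3 differed between AT and SM at washout, by 0.90 against post-treatment and by 0.88 against pre-treatment (edgeR interaction, adjusted p = 0.0137 and 0.0238).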

How the results depend on the processing

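Of 1105 values of single members under the alternatives, 1026 kept their direction and side of the threshold, 9 lost and 17 gained a call, and 53 changed sign, none of them for the 13 results that were called. Causes of the values that follow were not tested. In AT post-treatment, ASNS was called under every alternative run, from -0.92 to -0.62. PHGDH was lost only without the replicate block (the animal), at -0.54. PSAT1 was lost there (-0.62), with only the 2 time points compared (-0.91) and without animal 21189 (-0.76), 22130 (-0.70) or 26292 (-0.82), so that without the block 1 member was DE lower. At washout against post-treatment, 3 members were DE higher with voomWithQualityWeights, DESeq2 and library size alone, 2 with DESeq2 size factors and with at least 10 counts in every library, and 1 to 3 with an animal left out (3 without 26292). Leaving out an animal gave 805 (22130) to 2214 genes DE in AT post-treatment, with 998 without 20275, 1316 without 21189 and 1162 without the pre-treatment library of 20275, against 2068.

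For all genes in SM at washout against post-treatment (24 DE), the number was 9 with voomWithQualityWeights, 359 with DESeq2, 4 with library size alone, 224 without the block, 2650 with the identifier series, 2 with only the 2 time points, and 0 (19832, 20275) to 38 (22130) with an animal left out. Against pre-treatment (8 DE) it was 170 with DESeq2, 3 with library size alone, 22 with DESeq2 size factors, 17 with at least 10 counts, 41 without the block, 1355 with the series, 3 with the earlier quasi-likelihood method, and 0 (19832) to 16 (23004) with an animal left out. With the series, 1 member (DDIT3) was DE lower in both. The interaction at washout against post-treatment called 2 members with library size alone and 0 with voomWithQualityWeights. Between the tissues, 1 member was DE higher in SM with library size alone and 1 higher in AT with at least 10 counts in every library, where fewer members were tested.

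Signs changed for values that were not called. With library size alone, ATF4 and ASNS in AT at washout against pre-treatment were both 0.02, and the differences between tissues were 0.00 for DDIT3 post-treatment and 0.19 for ATF4, 0.01 for TRIB3, 0.11 for PSAT1 and 0.24 for SHMT2 at washout against pre-treatment. With voomWithQualityWeights, PSAT1 in SM post-treatment was -0.22, and the differences were 0.13 for DDIT3 and -0.00 for TRIB3 post-treatment, -0.46 for CHAC1 at washout against post-treatment, and -0.03 for CHAC1 and 0.02 for SHMT2 against pre-treatment. With DESeq2, TRIB3 and SHMT2 in SM against pre-treatment were 0.03 and 0.02, and the differences were 0.00 for DDIT3 post-treatment and 0.00 for SHMT2 at washout against pre-treatment. DESeq2 size factors gave 0.02 for SHMT2 in SM against pre-treatment. Without the block, ASNS in SM post-treatment was -0.26, and the differences were -0.57 for CHAC1 against post-treatment and 0.19 for PSAT1 against pre-treatment. With at least 10 counts, they were 0.01 for DDIT3 post-treatment and 0.03 for SHMT2 at washout against pre-treatment. With the series, SM values were -0.03 for ATF4 and 0.06 for DDIT3 post-treatment and -0.38, -1.25 and -0.09 for TRIB3, CHAC1 and ASNS at washout against post-treatment.

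With an animal left out, AT ranges were -0.09 to 0.02 for SHMT2 post-treatment, -0.03 to 0.43 for TRIB3 at washout against post-treatment, and -0.04 to 0.10 for SHMT2 and -0.42 to 0.00 for TRIB3 against pre-treatment. In SM post-treatment they were -0.18 to 0.84 for ASNS, -0.07 to 0.12 for ATF4, -0.31 to 0.11 for DDIT3, -0.66 to 0.24 for PHGDH and -0.17 to 0.59 for PSAT1. At washout against post-treatment they were -0.05 to 0.58 for ASNS, -0.02 to 0.57 for CHAC1 and -0.93 to 0.12 for PHGDH. Against pre-treatment they were -0.08 to 1.26 for ASNS, -1.58 to 0.08 for PHGDH, -0.88 to 0.19 for PSAT1, -0.05 to 0.03 for SHMT2 and -0.52 to 0.28 for TRIB3.

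Library size alone moved the share of AT calls that were higher from 49.7% to 63% at washout against post-treatment and from 61.1% to 79.7% against pre-treatment, and the median change of all genes in SM from -0.031 to -0.161 at washout against post-treatment. Few counts limit CHAC1, FGF21 and SDS in AT, TRIB3, PSAT1 and FGF21 in SM, and CHAC1 in those SM libraries where it is low (from 3 counts). They also limit SLC7A11 in AT post-treatment and at washout (means of 0.954 and 0.455 CPM). The promoter motif search was not run.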

Other observations

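Some genes of the pathway differed in AT between washout and pre-treatment, where 5 of the 85 listed genes tested were DE higher (5.88%) and 9 DE lower (10.6%), beside 12.5% and 7.96% of all genes. MTR, the methionine synthase that takes its methyl group from folate, was at 49.2 ± 13.9 CPM pre-treatment (SD, n = 10) and at 16.4 ± 13.2 CPM at washout (SD, n = 8), a log2 change of -1.76 (SE 0.17, edgeR adjusted p = 2.36e-06). AMT, the aminomethyltransferase of the glycine cleavage system, rose from 25.4 ± 4.33 to 56.2 ± 11.2 CPM (SD), a change of 1.14 (SE 0.16, adjusted p = 2.91e-05). SLC7A11 had the largest fall of the listed genes, -2.54 (SE 0.27, adjusted p = 3.68e-06), to 0.455 ± 0.235 CPM (SD, n = 8), and was lower in 8 of 8 animals. MTHFD2L, a mitochondrial folate dehydrogenase, rose by 0.58 (SE 0.13, adjusted p = 0.00343), and the serine dehydratase SDS by 1.38 (SE 0.43, adjusted p = 0.0245) from a mean of 0.125 CPM. Among the tRNA synthetases CARS rose by 0.36, while EPRS and YARS fell by 0.45 and 0.27 on the log2 scale. JDP2, SLC3A2, ALDH1L2 and PPP1R15B were also DE lower, at -0.51, -0.40, -0.52 and -0.27, and MTFMT was DE higher at 0.27. The kinase EIF2AK2 changed by -1.11 (SE 0.19, adjusted p = 0.000287). Over the same comparison 6 of 10 macrophage genes were DE lower, and their part in these values was not tested.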
